A study of Arabidopsis thaliana with 6 samples.

Results

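The genes considered here are those encoded by the mitochondrial genome of Arabidopsis thaliana. They were taken from the deposited expression table by position: every locus on the mitochondrial chromosome that carries a mitochondrial gene identifier, which gave 125 loci of 32594 in the table. Another 8 loci on that chromosome carry no gene name. The 125 loci hold 127 distinct genes, because 5 loci merge neighbouring or trans-spliced genes, and 4 loci lie on the strand opposite to the gene they are named after. The genes RRN26, RRN5, NAD9, RPL16, ATP8 and NAD1C have no row of their own and were not analysed here.

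Whole seedlings were collected at 14 days, without treatment, from plants grown on MS plates at 22 °C. The wild type was Col-0. In apc8-1 the altered gene is APC8, which encodes part of a ubiquitin ligase, the anaphase promoting complex. In nrpe1-12 it is NRPE1, which encodes the catalytic core of RNA polymerase V, an enzyme of RNA-directed DNA methylation. Each genotype had 2 libraries of total RNA from which ribosomal RNA had been removed, called its pair below. No label says whether a pair came from separately grown plants, and the p-values then reflect the spread between these samples alone, which may be technical.

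Plant mitochondria keep a small set of genes for subunits of the respiratory chain, the ATP synthase, cytochrome c maturation and their own ribosomes, and import all other proteins. Their transcripts are made by phage-type RNA polymerases of nuclear origin and pass through extensive splicing, trans-splicing, end processing and C-to-U editing before they are translated. Most mature plant mitochondrial messengers lack a stable poly(A) tail, so libraries of total RNA sample them more directly than poly(A)-selected ones. In Col-0 the nuclear chromosome 2 also carries a large insertion of mitochondrial DNA, with near-identical copies of many of these genes.

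Levels are FPKM computed by the authors (fragments per kilobase of a transcript, scaled by library size), so levels of different loci can be compared per assembled length. In 20 of the 125 mitochondrial loci the first assembled exon was longer than the annotated gene. The level of such a locus need not be that of the gene alone. From the steps between low values, 1 FPKM stood for an estimated 14.0 to 19.2 fragments per kilobase of effective length. APC8 had 1.29 and 1.64 FPKM in the Col-0 pair and 1.80 and 1.93 in the apc8-1 pair. NRPE1 had 2.71 and 2.91 FPKM in the Col-0 pair and 6.46 and 5.94 in the nrpe1-12 pair. The labels do not name the kind of lesion, and neither level checks them. RBCS1A, a marker of green tissue, had 9870 to 15693 FPKM in the 6 libraries. Of the 125 mitochondrial loci, 61 reached 1 FPKM in at least 2 libraries and were tested, 55 were listed at 0 in all 6 libraries, and 9 were above 0 in some library but too low to test.

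ATP9 gave the highest mitochondrial level, and ATP4 the next among loci not merged with ribosomal RNA. ATP9 (ATMG01080, TAIR10 mitochondrial chromosome, 278649 to 279152, forward strand), the membrane ring subunit c, had 4278 and 4056 FPKM in the Col-0 pair, 3699 and 3699 in the apc8-1 pair, and 3483 and 3726 in the nrpe1-12 pair. Both Col-0 libraries lay above all 4 mutant libraries, but not once the level of the ATP9 copy on chromosome 2 was added (values below). The difference was -0.17 on the log2(FPKM + 1) scale in apc8-1 (SE 0.07, limma adjusted p = 0.109) and -0.21 in nrpe1-12 (SE 0.07, adjusted p = 0.0655), so neither passed the test. ATP4 (ATMG00640, 188084 to 188662), a subunit of the peripheral stalk, had 1699 and 1789 FPKM in the Col-0 pair, 1176 and 1898 in the apc8-1 pair, and 1569 and 1927 in the nrpe1-12 pair. Its 2 apc8-1 libraries enclosed both Col-0 libraries. ATP1 (ATMG01190), the catalytic-head subunit alpha, varied little, from 70.8 to 77.4 FPKM over the 6 libraries.

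ATP9 alone made up 34.3 to 41.9% of the summed FPKM of the mitochondrial genes, leaving out the locus merged with ribosomal RNA. With ATP4 and the locus opposite COX1, the 3 loci made up 57.5 to 69.2%. At the other end, 23 of the 61 tested genes had a mean under 10 FPKM. Of the 35 tested genes for which fragments could be estimated, 9 had fewer than 20 fragments in every library.

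**Figure D1:**
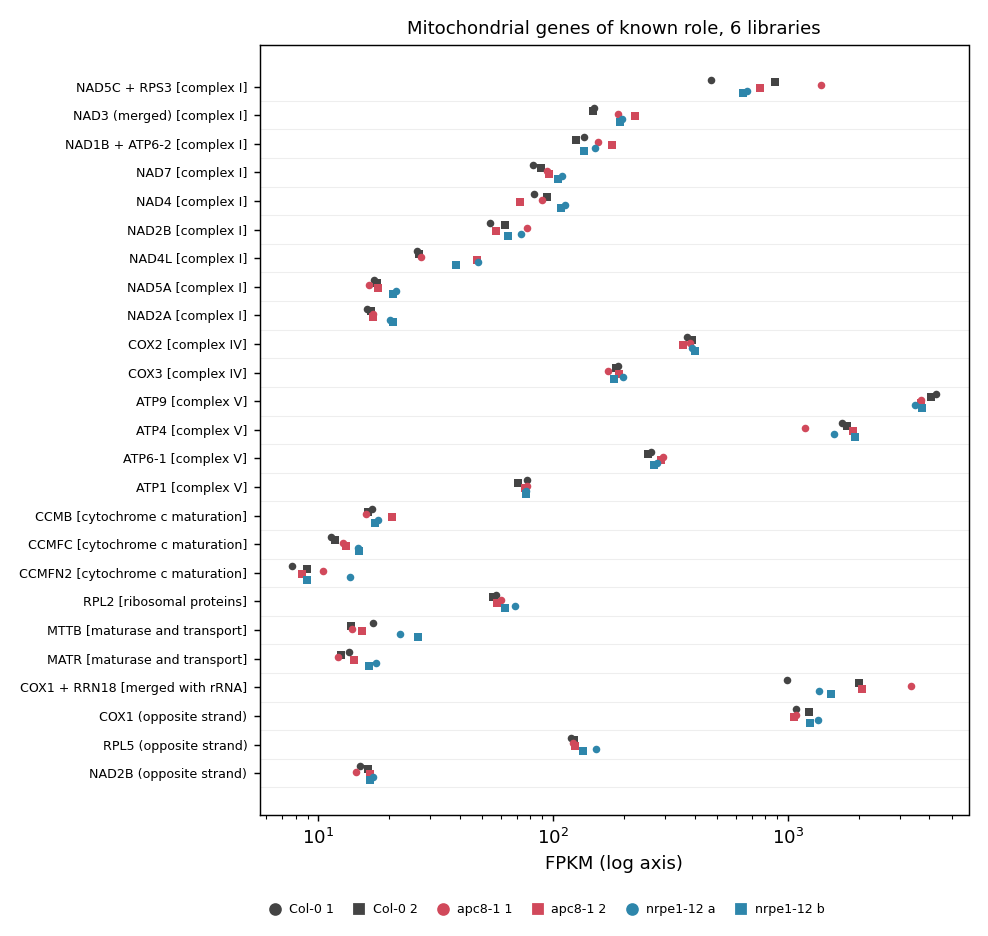
FPKM (log axis) of the 25 tested mitochondrial loci of known role, loci merged with ribosomal RNA or opposite a gene included, with 1 point per library (circles and squares are the 2 libraries of a genotype). Most rows show points close together, while NAD5C + RPS3 and COX1 + RRN18 spread widely within Col-0 and within apc8-1.

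Neither tested subunit of complex IV passed the test in any comparison. COX2 (ATMG00160) had 373 and 391 FPKM in the Col-0 pair, 383 and 358 in the apc8-1 pair, and 390 and 404 in the nrpe1-12 pair. COX3 (ATMG00730) lay between 171 and 199 FPKM in all 6 libraries. COX1 has no row that holds it alone on its own strand. One locus merges it with RRN18, the small ribosomal RNA, and a second locus (351265 to 351628, forward strand) overlaps the start of COX1 on the opposite strand. No source used here tells whether counting used strand, so reads of COX1 and of that opposite locus cannot be told apart.

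Among the tested genes with at least 10 FPKM in every library, the widest spread between libraries of the same genotype, judged by their ratio, was seen in 2 loci. The COX1 and RRN18 locus had 989 and 2001 FPKM in the Col-0 pair, 3340 and 2060 in the apc8-1 pair, and 1351 and 1517 in the nrpe1-12 pair. The NAD5C and RPS3 locus, whose first exon runs from 8848 to 20717, measured 468 and 883 FPKM in the Col-0 pair, 1376 and 758 in the apc8-1 pair, and 666 and 643 in the nrpe1-12 pair. NAD5C itself is annotated from 20571 to 22086, and whether the long first exon also holds ribosomal RNA was not checked. In both loci the first Col-0 library was the lowest and the first apc8-1 library the highest of the 6. The ratio between the 2 Col-0 libraries was 2.02 for the first locus and 1.89 for the second. Of the 36 tested genes with at least 10 FPKM in every library, 31 had a ratio under 1.5 in every genotype. The first locus differed by 0.90 between apc8-1 and Col-0 (SE 0.32, limma adjusted p = 0.0666) and by 0.03 between nrpe1-12 and Col-0 (adjusted p = 0.966), and neither passed. Ribosomal RNA removal acts on such transcripts, and its part in this spread was not tested.

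**Figure D2:**
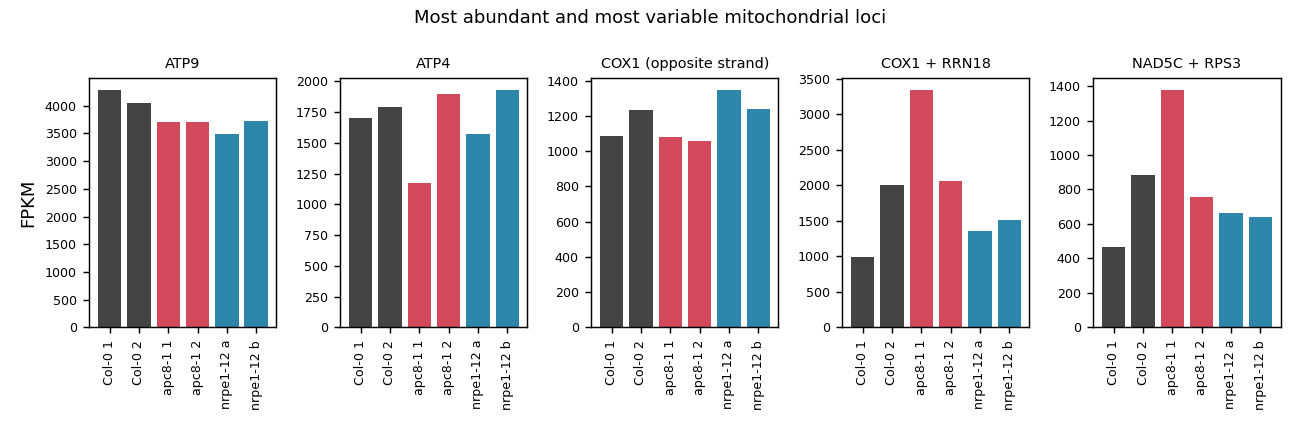
FPKM (bars from 0, 1 bar per library, separate vertical axes) of ATP9, ATP4 and the locus opposite COX1, the 3 most abundant mitochondrial loci once the locus merged with ribosomal RNA is left out, and of the 2 loci with the widest spread among genes of at least 10 FPKM in every library. ATP9, without its chromosome 2 copy, is highest in both Col-0 libraries, while COX1 + RRN18 runs from 989 to 3340 FPKM and NAD5C + RPS3 from 468 to 1376.

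The mitochondrial genes together made up 1.75 and 1.82% of all FPKM in the Col-0 pair, 1.87 and 1.65% in the apc8-1 pair, and 1.54 and 1.62% in the nrpe1-12 pair. Without the locus merged with ribosomal RNA the shares were 1.59 and 1.53%, 1.42 and 1.38%, and 1.36 and 1.41%, so both Col-0 libraries then lay above all mutant libraries. These shares count ATP9 but not its chromosome 2 copy. Gene and copy together had 4953 and 7874 FPKM in the Col-0 pair, 7374 and 7235 in the apc8-1 pair, and 7036 and 7902 in the nrpe1-12 pair. For that sum the first Col-0 library was the lowest, so the order of the genotypes was not kept. The shares were not computed with the copy. The summed FPKM behind these shares did not separate the genotypes, with sums of 10209 and 10662 for Col-0, 10359 and 10449 for apc8-1, and 10155 and 10524 for nrpe1-12. The sums keep the NAD5C and RPS3 locus. Without it as well, they were 9741 and 9780 for Col-0, 8983 and 9690 for apc8-1, and 9488.5 and 9881 for nrpe1-12. The apc8-1 pair then lay below the Col-0 pair, and the nrpe1-12 pair enclosed it. With 2 libraries in each group the smallest p of an exact permutation test (two-sided) is 0.33, so no test was made of these shares. Chloroplast loci, which enter the same denominator, held 24.1 and 29.3% of the FPKM in Col-0 and 28.4 to 30.2% in the mutants. The second Col-0 value includes rbcL, with 45404.5 FPKM there and a listed value of 0 in each of the others. In whole seedlings, fewer cells or mitochondria of a kind and less RNA in each of them cannot be told apart.

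In apc8-1 against Col-0, 8 of the 61 tested mitochondrial genes rose and 2 fell, which is 16.4% against 30.2% of all 17802 loci tested. Increases were 13.1% of the mitochondrial genes against 14.1% of all loci, and decreases 3.28% against 16.1%. The median difference over the 61 genes was 0.16 on the log2 scale, against 0.01 over all loci, and 42 of 61 differences were positive. The libraries of the genotypes did not overlap for 28 genes that were higher and 4 that were lower in apc8-1, against 33.2% and 32.5% of all loci. At an unadjusted p below 0.05, 17 were higher and 3 lower. When libraries were rescaled to equal summed FPKM of nuclear loci without ribosomal RNA, which moved the median of all loci to -0.07, 2 mitochondrial genes were called higher and 3 lower. Without the first Col-0 library 4 were called, and without the first apc8-1 library 6.

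Complex I, the NADH dehydrogenase, had 2 of 9 tested loci that rose in apc8-1 and none that fell (3 higher and 0 lower at an unadjusted p below 0.05). The increases are 22.2% of these loci, against 14.1% of all loci. The 9 include merged loci, among them NAD5C with RPS3, and NAD1B with ATP6-2 of the ATP synthase. Their values cannot be credited to the complex I gene alone. The locus that merges NAD3 with ATMG01000 and ATMG01010 (first exon 260647 to 261006, reverse strand) measured 149 and 148 FPKM in the Col-0 pair, 189 and 222 in the apc8-1 pair, and 196 and 193 in the nrpe1-12 pair. All 4 mutant libraries lay above both Col-0 libraries. The difference was 0.46 in apc8-1 (SE 0.08, limma adjusted p = 0.00318) and 0.39 in nrpe1-12 (SE 0.08, adjusted p = 0.00821), and both comparisons share the Col-0 libraries. The apc8-1 call was kept in every alternative run. The nrpe1-12 call was lost without the second Col-0 library (adjusted p = 0.0538). The locus that merges NAD1B with ATP6-2 rose from 136 and 126 FPKM in Col-0 to 156 and 178 in apc8-1 (0.35, SE 0.09, adjusted p = 0.0164), a call lost without the second Col-0 library (adjusted p = 0.11) or the second apc8-1 library (adjusted p = 0.0784). It had 151 and 135 FPKM in nrpe1-12.

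ATP6-1 (ATMG00410, 111587 to 112907), subunit a of the proton channel, was measured on a locus whose first exon runs from 111413 to 118754. It had 260 and 252 FPKM in the Col-0 pair, 293 and 289 in the apc8-1 pair, and 276 and 270 in the nrpe1-12 pair. It rose by 0.18 in apc8-1 (SE 0.05, adjusted p = 0.0316), the smallest called difference among the 10. This call was lost when any one of the 4 libraries compared was left out (adjusted p = 0.0651 to 0.192) and with the libraries rescaled to nuclear loci (adjusted p = 0.217), and with quantile normalization the adjusted p was 0.976. NAD7 and CCMFC did not pass in apc8-1.

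The other calls in apc8-1 fell on open reading frames without a known function. ORF262 (ATMG01090, 279463 to 280251), which starts just downstream of ATP9 on the same strand, had 43.3 and 41.3 FPKM in the Col-0 pair, 53.6 and 53.4 in the apc8-1 pair, and 32.1 and 39.1 in the nrpe1-12 pair. Its libraries were high in apc8-1 and low in nrpe1-12, without overlap between any 2 genotypes. The increase in apc8-1 was 0.33 (SE 0.09, adjusted p = 0.0281), and was lost when any one of the 4 libraries compared was left out (adjusted p = 0.0817 to 0.138). ORF113 (ATMG01220, 305221 to 305562) was also highest in apc8-1, with 169 and 155 FPKM in the Col-0 pair, 239 and 201 in the apc8-1 pair, and 132 and 166 in the nrpe1-12 pair, where it overlapped Col-0. It rose by 0.44 in apc8-1 (SE 0.12, adjusted p = 0.0268), a call lost without either Col-0 library or without the first apc8-1 library (adjusted p = 0.0627 to 0.138).

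ORF107A (ATMG00030) had 21.0 and 36.7 FPKM in the Col-0 pair and 51.5 and 44.0 in the apc8-1 pair, and rose by 0.75 (SE 0.23, adjusted p = 0.0387). Its 2 Col-0 libraries differed by a ratio of 1.75, and the call was lost in 3 of the 6 runs that leave out 1 library (the first Col-0 library and either apc8-1 library). ORF159 (ATMG01050) fell from 7.23 and 7.83 to 5.84 and 5.65 FPKM (-0.34, SE 0.10, adjusted p = 0.0401), and this call was lost in all 6 such runs (adjusted p = 0.0506 to 0.196). Among the reading frames, larger differences that did not pass were those of ORF106B (1.06), ORF107B (0.79) and ORF143 (0.77), all with mean levels under 10 FPKM.

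In nrpe1-12 against Col-0, 13 of the 61 genes rose and none fell, which is 21.3% against 26.3% of all loci tested. Increases were 21.3% of the mitochondrial genes against 13.5% of all loci, while decreases were 12.8% of all loci. At an unadjusted p below 0.05, 18 mitochondrial genes were higher and 2 lower. The median difference was 0.18 (0.175 before rounding) against -0.01 over all loci, and 52 of 61 differences were positive. The libraries did not overlap for 31 genes that were higher and 2 that were lower in nrpe1-12, against 31.2% and 33.1% of all loci. Rescaling to nuclear loci moved the median of all loci to -0.11 and gave 7 higher and 2 lower, and quantile normalization gave 11 and 2. Without the first Col-0 library 8 were called, without the second 7, and without nrpe1-12 library a 8.

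Complex I, merged loci included, had 4 of 9 loci called higher, which is 44.4% against 13.5% of all loci. All 9 differences were positive (6 higher and 0 lower at an unadjusted p below 0.05). Complex I also had the most tested loci of any group of known role. The 2 tested loci of maturase and transport were both called. NAD7 (ATMG00510, 132071 to 138153) measured 81.9 and 88.4 FPKM in the Col-0 pair, 94.3 and 95.5 in the apc8-1 pair, and 109 and 105 in the nrpe1-12 pair. The genotypes did not overlap, and the increase in nrpe1-12 was 0.33 (SE 0.06, limma adjusted p = 0.00598), lost without the first Col-0 library (adjusted p = 0.0618). NAD2A (ATMG00285) rose from 16.1 and 16.7 to 20.2 and 20.7 FPKM (0.30, SE 0.07, adjusted p = 0.0176). NAD5A (ATMG00513) rose from 17.3 and 17.7 to 21.4 and 20.9 FPKM (0.26, SE 0.08, adjusted p = 0.0433). NAD2A and NAD5A are parts of genes whose transcripts are joined by trans-splicing, and their apc8-1 values of 17.0 and 17.1, and of 16.4 and 18.03 FPKM, stayed near Col-0. Both calls were lost when any one of the 4 libraries compared was left out (adjusted p = 0.0588 to 0.11 for NAD2A and 0.112 to 0.187 for NAD5A). NAD2B (ATMG01320), another part of the trans-spliced NAD2, had 53.7 to 77.7 FPKM over the 6 libraries and did not pass in any comparison. NAD4L (ATMG00650) had 26.4 and 26.8 FPKM in the Col-0 pair and 48.0 and 38.4 in the nrpe1-12 pair, a difference of 0.67 that did not pass (SE 0.22, adjusted p = 0.0542).

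MTTB (ATMG00570, 157491 to 158351), which encodes a TatC-like membrane protein, had 17.0 and 13.8 FPKM in the Col-0 pair, 14.0 and 15.4 in the apc8-1 pair, and 22.2 and 26.5 in the nrpe1-12 pair. Only the nrpe1-12 libraries stood apart, and the increase was 0.63 (SE 0.12, adjusted p = 0.00714), lost without nrpe1-12 library b (adjusted p = 0.0505). MATR (ATMG00520, 144294 to 146312), the intron maturase, had 13.6 and 12.5 FPKM in the Col-0 pair, 12.1 and 14.2 in the apc8-1 pair, and 17.6 and 16.4 in the nrpe1-12 pair (0.36, SE 0.10, adjusted p = 0.0316). CCMFC (ATMG00180), a component of cytochrome c maturation, rose from 11.3 and 11.7 to 14.8 and 14.9 FPKM (0.34, SE 0.08, adjusted p = 0.0153). The calls of MATR and CCMFC were lost when any one of the 4 libraries compared was left out (adjusted p = 0.0707 to 0.17 and 0.0615 to 0.0968). CCMB and CCMFN2 did not pass.

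Open reading frames gave 5 of the 13 increases, which is 14.3% of the 35 tested, near the 13.5% of all loci. ORF149 (ATMG00660, 190104 to 190553) measured 136 and 164 FPKM in the Col-0 pair, 198 and 192 in the apc8-1 pair, and 225 and 199 in the nrpe1-12 pair. ORF275 (ATMG00670, 191055 to 191882), a reading frame nearby on the same strand that is named here after its values were seen, had 21.4 and 22.1, 29.2 and 27.4, and 34.2 and 28.4 FPKM. In both genes all 4 mutant libraries lay above Col-0. In nrpe1-12 the increases were 0.50 (SE 0.09, adjusted p = 0.00598) and 0.50 (SE 0.10, adjusted p = 0.00608), kept in every alternative run. In apc8-1 they were 0.38 (adjusted p = 0.0176) and 0.37 (adjusted p = 0.0212), lost without the first Col-0 library (adjusted p = 0.116 and 0.107) or the first apc8-1 library (adjusted p = 0.0685 and 0.0923), and for ORF275 without the second Col-0 library (adjusted p = 0.0744).

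ORF291 (ATMG01280) rose in nrpe1-12 from 5.79 and 4.95 to 8.15 and 9.17 FPKM (0.60, SE 0.11, adjusted p = 0.00577) and was also kept in every alternative run, with 6.72 and 6.72 FPKM in apc8-1. ORF157 (ATMG00400) rose from 105 and 104 to 119 and 125 FPKM (0.23, SE 0.06, adjusted p = 0.033), and was lost when any one of the 4 libraries compared was left out (adjusted p = 0.0607 to 0.156). The last of the 13 was the locus opposite RPL5, with 119 and 123 FPKM in the Col-0 pair and 153 and 134 in the nrpe1-12 pair (0.24, SE 0.07, adjusted p = 0.038). It did not survive the removal of either Col-0 library or of nrpe1-12 library a (adjusted p = 0.115 to 0.191). Its first exon (58283 to 60097) overlaps RPL5 (57774 to 58331) only at an end. Whether counting used strand is unknown, so the strand of its reads is uncertain.

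**Figure D3:**
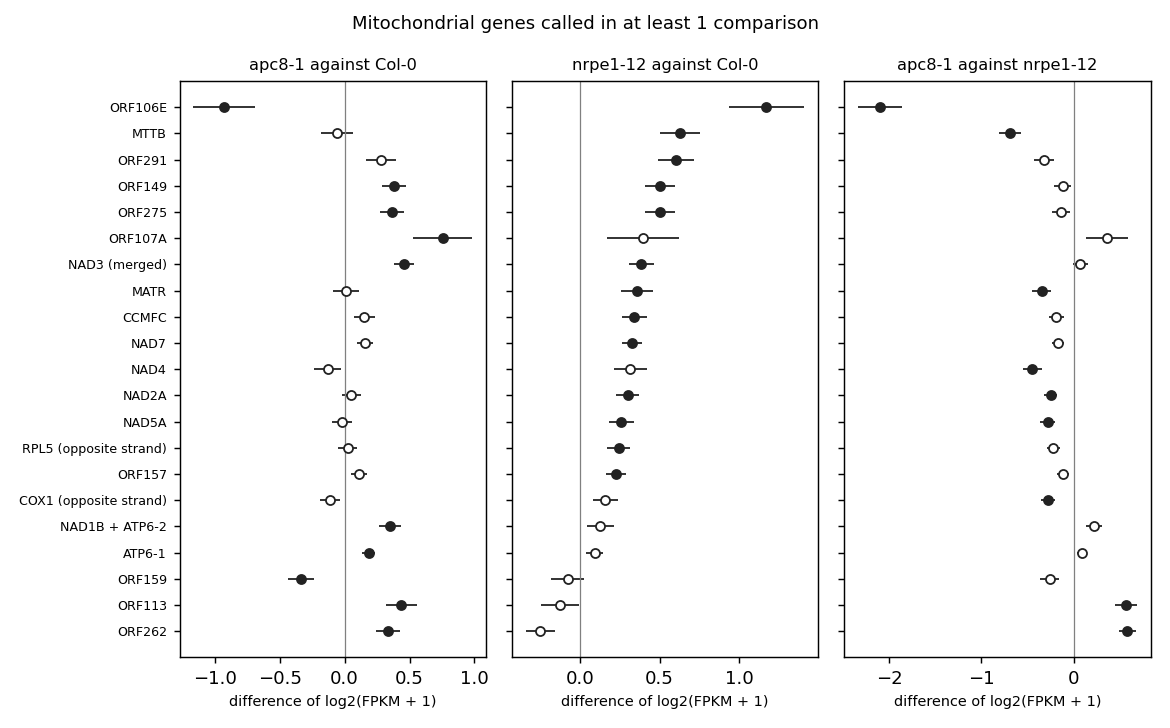
Difference of log2(FPKM + 1) with its standard error for the 21 mitochondrial loci called in at least 1 comparison, in order of the nrpe1-12 difference (filled points passed the test, open points did not, and the horizontal scales differ between panels). In nrpe1-12 all filled points lie above 0, while in apc8-1 ORF106E and ORF159 lie below.

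The mutants were also compared with each other. In apc8-1 against nrpe1-12, 2 of the 61 genes were higher and 7 lower, which is 14.8% against 18.7% of all loci tested. Higher values were 3.28% against 7.26% of all loci, and lower values 11.5% against 11.4%. The median difference was -0.05 against 0.00 over all loci (0.001 before rounding). The libraries did not overlap for 13 genes that were higher and 20 that were lower in apc8-1, against 28.0% and 29.5% of all loci. The split of calls moved to 2 higher and 3 lower with rescaling to nuclear loci, and to 3 and 3 with quantile normalization. The number called was 5 without the first apc8-1 library and 4 without either nrpe1-12 library.

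ORF262 and ORF113 were the genes higher in apc8-1 than in nrpe1-12, by 0.58 (SE 0.09, limma adjusted p = 0.00408) and 0.56 (SE 0.12, adjusted p = 0.0144). The ORF113 call was lost without the first apc8-1 library (adjusted p = 0.0689) or without nrpe1-12 library a (adjusted p = 0.0708), and that of ORF262 was kept in every alternative run. MTTB was lower in apc8-1 (difference -0.69, SE 0.12, adjusted p = 0.007), lost without nrpe1-12 library b (adjusted p = 0.052). NAD4 (ATMG00580, 161693 to 169674), a proton-pumping subunit of complex I, had 89.3 and 72.3 FPKM in apc8-1 and 112 and 108 in nrpe1-12, a difference of -0.45 (SE 0.11, adjusted p = 0.0211), lost without the second apc8-1 library or either nrpe1-12 library (adjusted p = 0.0755 to 0.101). Col-0 had 82.6 and 94.0 FPKM, which overlapped apc8-1 and lay below both nrpe1-12 libraries.

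NAD2A, NAD5A, MATR and the locus opposite COX1 were lower by -0.25, -0.28, -0.35 and -0.27 (adjusted p = 0.0476, 0.0412, 0.0453 and 0.044). Each of these 4 calls was lost in 4 to 6 of the 6 runs that leave out 1 library (adjusted p up to 0.201). The remaining call was ORF106E (ATMG01030), with 3.16 and 2.18 FPKM in the Col-0 pair, 0.608 and 1.27 in the apc8-1 pair, and 5.85 and 8.78 in the nrpe1-12 pair. It gave calls in all 3 comparisons, of -0.93 in apc8-1 (adjusted p = 0.0205), 1.17 in nrpe1-12 (adjusted p = 0.0084) and -2.10 between them (adjusted p = 0.00082). These values rest on an estimated 6, 3, 1, 2, 9 and 11 fragments in the 6 libraries, and the fold changes of so low a gene are understated on this scale. The call in apc8-1 was lost without the first Col-0 library (adjusted p = 0.125) or the first apc8-1 library (adjusted p = 0.1), and that in nrpe1-12 without the second Col-0 library (adjusted p = 0.0585) or nrpe1-12 library b (adjusted p = 0.0594).

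Transfer RNA genes were almost unseen, as 17 of 18 were listed at 0 in all 6 libraries. They are shorter than the 224 to 234 bases that the FPKM steps give as the length subtracted for a fragment, so a value of 0 says nothing of their level. Among open reading frames 32 of 71 were listed at 0 everywhere, and among ribosomal protein genes only RPL2 of 5 loci could be tested. RPL2 (ATMG00560) had 57.1 and 55.2 FPKM in the Col-0 pair, 59.7 and 57.6 in the apc8-1 pair, and 68.5 and 62.2 in the nrpe1-12 pair, and did not pass.

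Some mitochondrial genes were listed at or near 0 while a copy on chromosome 2 had a value. By gene identifiers or protein names in the annotation, 33 mitochondrial loci were paired with loci between 3.2 and 3.6 Mb of chromosome 2, in 35 pairs. Sequences were not compared, so copies may have been missed. In 7 pairs the mitochondrial locus stayed under 1 FPKM in every library while the copy had at least 1 FPKM in all. COB (ATMG00220), cytochrome b of complex III and the only mitochondrial gene of that complex, was listed at 0 in 5 libraries and at 0.0729 FPKM in the second Col-0 library. Its copy AT2G07727 (chromosome 2, 3450578 to 3452044) measured 153 and 158 FPKM in the Col-0 pair, 152 and 190 in the apc8-1 pair, and 185 and 167 in the nrpe1-12 pair. NAD6 was listed at 0 in all libraries while its copy AT2G07731 had 45.7 to 57.9 FPKM, and RPL5 was listed at 0 while its copy had 241 to 327 FPKM. The 0 of COB, NAD6 and RPL5 can therefore not be read as absence of transcript. The NAD6 copy was called higher in nrpe1-12 than in Col-0 (0.29, limma adjusted p = 0.0105) and lower in apc8-1 than in nrpe1-12 (-0.27, adjusted p = 0.0196). CCMC was listed at 0 in all libraries together with its copy. RPS4, for which this pairing found no copy but may have missed one, was listed at 0 as well. What lies behind these values of 0 was not tested, and they are not read as absence either.

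The reverse also occurred: in 8 pairs the mitochondrial locus had at least 1 FPKM throughout and the copy fell under 1 FPKM in some library. The NAD3 locus is one, as its copy AT2G07751 was listed at 0 in all libraries. In 9 pairs both had at least 1 FPKM throughout, among them COX3. Its copy AT2G07687 had 259 and 249 FPKM in the Col-0 pair, 252 and 255 in the apc8-1 pair, and 304 and 302 in the nrpe1-12 pair. The copy rose in nrpe1-12 by 0.26 (SE 0.05, limma adjusted p = 0.00917), while COX3 itself did not pass. The copy AT2G07715 of RPL2 was called higher in both mutants (0.31, adjusted p = 0.0182 in apc8-1, and 0.41, adjusted p = 0.00599 in nrpe1-12), while RPL2 itself was not. For MATR and NAD5A, gene and copy were both called higher in nrpe1-12 (copies 0.53, adjusted p = 0.0273, and 0.29, adjusted p = 0.0254). The CCMFC copy was called in apc8-1 (0.30, adjusted p = 0.0267) but not in nrpe1-12, where CCMFC was. The copy of ORF157 was not called. The ATP9 copy AT2G07671 had 675 FPKM in the first Col-0 library and 3536 to 4176 in the other 5. Near-identical sequences share fragments, so how the values divide between a gene and its copy is uncertain.

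**Figure D4:**
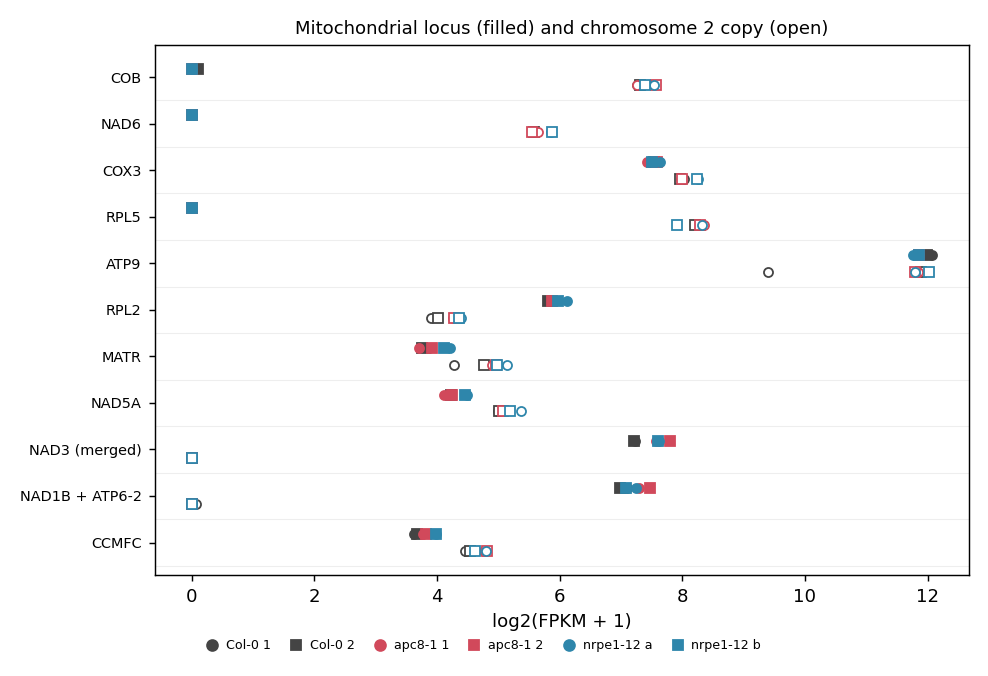
Level as log2(FPKM + 1) of 11 mitochondrial loci of known role (filled) and of their chromosome 2 copies (open), 1 point per library, with circles and squares for the 2 libraries of a genotype. COB, NAD6 and RPL5 lie at or near 0 on the mitochondrial chromosome and high on chromosome 2, while NAD3 and NAD1B + ATP6-2 show the opposite.

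Loci of the window on chromosome 2 were read from the same fit. Of its 59 tested loci, 10 rose and none fell in apc8-1 against Col-0, and 13 rose and 1 fell in nrpe1-12 against Col-0, with medians of 0.17 and 0.20 (0.195 before rounding). Increases were 16.9% of the window's loci in apc8-1, near the 14.1% of all loci, and 22.0% in nrpe1-12 against 13.5%. Between the mutants 2 were higher and 3 lower in apc8-1, which is 3.39% and 5.08% against 7.26% and 11.4% of all loci. Among the 42 tested mitochondrial genes without a paired copy, 5 rose and none fell in apc8-1, 6 rose and none fell in nrpe1-12, and 1 was higher and 4 lower in apc8-1 than in nrpe1-12. These increases are 11.9% of the unpaired genes in apc8-1 and 14.3% in nrpe1-12, near the 14.1% and 13.5% of all loci. Between the mutants the unpaired genes had 2.38% higher and 9.52% lower, both below the 7.26% and 11.4% of all loci. Unpaired genes may still have copies that the annotation did not name. The chloroplast genome, the other organelle genome in these libraries, had 48 of 60 tested loci called higher in apc8-1 and 48 in nrpe1-12, against 14.1% and 13.5% of all loci.

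Nuclear genes for mitochondrial proteins were read from the same fit. Of 37 tested genes for nuclear subunits of the respiratory complexes, 6 fell and none rose in apc8-1 (8 lower and 1 higher at an unadjusted p below 0.05), and 10 fell and none rose in nrpe1-12 (18 lower and 0 higher). Decreases were thus 16.2% of the list in apc8-1, near the 16.1% of all loci, and 27.0% in nrpe1-12 against 12.8% of all loci. Their medians were -0.11 and -0.19, beside 0.16 and 0.18 for the mitochondrial genes. SDH1-1 (AT5G66760), the flavoprotein of complex II, had 49.3 and 49.3 FPKM in the Col-0 pair, 30.1 and 32.3 in the apc8-1 pair, and 37.7 and 38.9 in the nrpe1-12 pair. The differences in log2(FPKM + 1) were -0.65 in apc8-1 (SE 0.07, limma adjusted p = 0.000272) and -0.36 in nrpe1-12 (SE 0.07, adjusted p = 0.00537). ATPQ (AT3G52300), subunit d of the ATP synthase, fell from 120 and 116 FPKM to 92.7 and 97.8 in apc8-1 and to 95.3 and 84.7 in nrpe1-12. The count of lower calls in nrpe1-12 over all 5 nuclear lists was 12 of 77 genes, and it was 30 with rescaling to nuclear loci and 3 and 2 without the first and second Col-0 library.

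Genes of alternative respiration moved in both directions in apc8-1, with 2 of 8 tested genes higher and 4 lower, while 1 was higher and 1 lower in nrpe1-12. Over all loci, 14.1% were higher and 16.1% lower in apc8-1, and 13.5% and 12.8% in nrpe1-12, so the nrpe1-12 counts of this list are at the background. AOX1A (AT3G22370), the stress-responsive alternative oxidase, had 41.4 and 42.1 FPKM in the Col-0 pair, 25.0 and 26.3 in the apc8-1 pair, and 42.5 and 44.7 in the nrpe1-12 pair. The apc8-1 libraries alone were low (-0.68, SE 0.07, adjusted p = 0.000216 against Col-0, and -0.74, adjusted p = 0.000257 against nrpe1-12). AOX1D (AT1G32350) fell in apc8-1 from 5.82 and 6.39 to 1.07 and 1.54 FPKM (-1.63, SE 0.14, adjusted p = 0.000114). NDA1 (AT1G07180), an internal alternative NADH dehydrogenase, rose from 12.6 and 12.6 FPKM in wild type to 17.95 and 17.4 in apc8-1 and 28.4 and 26.4 in nrpe1-12.

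Of 6 tested genes that respond to mitochondrial stress, 5 fell and none rose in apc8-1 against Col-0 (5 lower and 0 higher at an unadjusted p below 0.05), and 1 fell in nrpe1-12, where 16.1% and 12.8% of all loci fell. The median was -0.71 in apc8-1 and -0.06 (-0.055 before rounding) in nrpe1-12, and AOX1A is also in the list of alternative respiration. NAC13 (AT1G32870), a transcription factor of mitochondrial retrograde signalling, had 11.9 and 11.9 FPKM in the Col-0 pair, 5.17 and 6.90 in the apc8-1 pair, and 14.8 and 14.0 in the nrpe1-12 pair (-0.89 in apc8-1, SE 0.12, adjusted p = 0.00126). BCS1 (AT3G50930), which encodes an AAA-type ATPase, fell in apc8-1 from 5.17 and 4.82 to 2.79 and 2.37 FPKM. Of 20 tested genes for mitochondrial RNA polymerase and processing, 1 fell in apc8-1 and none was called in nrpe1-12 (1 higher and 2 lower at an unadjusted p below 0.05). Both counts lie below the 30.2% and 26.3% of all loci called. The gene that fell was AT5G15700, a phage-type RNA polymerase, from 2.79 and 3.31 to 1.42 and 1.96 FPKM. None of 7 genes of organelle DNA maintenance was called in any comparison by limma (1 higher and 0 lower at an unadjusted p below 0.05 in each mutant against Col-0).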

How the data were processed

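RNA of 6 seedling libraries, 2 for each of 3 genotypes, was read from the deposited FPKM table. The submitters' processing notes name the TAIR10 build with TopHat2 (2.0.13), Cufflinks (2.2.1) and Cuffnorm (2.2.1) as what the authors ran to obtain these FPKM values. No library totals come with the table. The fragments behind 1 FPKM were estimated from single-exon nuclear loci longer than 800 bases, where 99.87 to 100.0% of low values were whole fragments to within 0.15. FPKM hold no counts, so a count model was not used.

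A pseudocount of 1 was added before taking log2. Loci that reached 1 FPKM in 2 or more libraries, 17802 in number, entered limma (version 3.58.1, R version 4.3.3, eBayes with an intensity trend, 3 residual and 4.93 prior degrees of freedom) in 1 fit of all 6 libraries. A locus was called at a Benjamini-Hochberg adjusted p below 0.05 over all loci tested. The procedure was tested on simulated data. Fold changes are differences of log2(FPKM + 1), which understate changes of low genes.

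The 2 nrpe1-12 columns share a name, so these libraries are called a and b. The mitochondrial genes, the gene lists and the tests were chosen with earlier results of these data known. Named were tested genes of known role, the open reading frames with the 4 largest increases and decreases per comparison or the 5 highest levels, where the text turns on them, and up to 4 called genes per nuclear list. Alternatives covered pseudocounts, filters, scalings, variance priors, left-out libraries and member sets.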

Additional observations from a re-analysis of the deposited data

How the results depend on the processing

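Of the 32 called values of mitochondrial genes, 6 were kept in every alternative, 26 were lost in some run without 1 library, 21 were lost in another alternative, and 0 changed sign. Of the 151 tests that did not pass, 37 passed in some alternative. The cause of these changes was not tested. Alternatives other than member sets refit all loci, so the number called among all loci can change as well. Counts of calls under such refits, here and above, are given without that number. They are therefore not read as a result about the listed genes alone.

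The number of mitochondrial genes called in apc8-1 against Col-0 was 10. It became 2 without a filter on low values, 5 with organelle and ribosomal RNA loci left out of the total, 3 without an intensity trend, 5 without genes paired with the chromosome 2 insertion, 3 for protein-coding genes of known role, and 4 to 11 without 1 library. In nrpe1-12 against Col-0 the 13 calls became 6 without paired genes, 7 for genes of known role, and 7 to 17 without 1 library. In apc8-1 against nrpe1-12 the 9 calls became 4 without a filter, 5 with organelle and ribosomal RNA loci left out, 5 with equal mitochondrial sums without the NAD5C and RPS3 locus (chosen after seeing the data), 3 without a trend, 5 without paired genes, 5 for genes of known role, and 4 to 10 without 1 library.

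The median in apc8-1 was 0.164. It was 0.18 and 0.173 with pseudocounts of 0.1 and 0.5, 0.155 without a filter, 0.179 with quantile normalization, 0.083 with organelle and ribosomal RNA loci left out, 0.224 with equal mitochondrial sums without the NAD5C and RPS3 locus, 0.193 without paired genes, 0.06 for genes of known role, and 0.13 to 0.164 without 1 library. In nrpe1-12 the median of 0.175 was 0.216 with a pseudocount of 0.1, 0.08 with organelle and ribosomal RNA loci left out, 0.244 for genes of known role, and 0.129 to 0.217 without 1 library. Between the mutants the median of -0.053 was -0.02 with quantile normalization, -0.016 with equal mitochondrial sums without the NAD5C and RPS3 locus, -0.152 for genes of known role, and -0.098 to 0.004 without 1 library. Between libraries of the same genotype the medians had an SD of 0.007 to 0.026, which rests on 2 libraries a genotype. Several alternatives above moved the medians by more than that.

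For the chromosome 2 window, the 10 calls in apc8-1 became 5 with organelle and ribosomal RNA loci left out, 6 without a trend, and 4 to 11 without 1 library. The 14 calls in nrpe1-12 became 8 with those loci left out and 5 to 15 without 1 library. The 5 calls between the mutants became 3 without a filter, 0 without a trend, and 1 to 5 without 1 library. For the nuclear lists, the 17 calls in apc8-1 ranged from 10 to 16 without 1 library. The 13 calls in nrpe1-12 became 31 with organelle and ribosomal RNA loci left out, 5 with equal mitochondrial sums without the NAD5C and RPS3 locus, 5 without a trend, and 4 to 14 without 1 library.

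The mitochondrial share averaged 1.78% of all FPKM for Col-0, 1.76% for apc8-1 and 1.58% for nrpe1-12. It was 1.56, 1.40 and 1.39% without the ribosomal RNA locus, and 2.19, 2.05 and 1.99% of nuclear loci without ribosomal RNA.

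The numbers of Col-0 and apc8-1 libraries did not pair them (r = -0.0585 between the differences of replicate 2 and 1, over 17802 loci). With a replicate block, 9 mitochondrial genes were called in apc8-1 against Col-0 and the median was 0.162. The block ended the calls of ATP6-1 (adjusted p = 0.0859) and ORF159 (adjusted p = 0.0761). No paired analysis was possible because the nrpe1-12 columns carry no distinct numbers for the other comparisons. Depth limits the genes of low level, of which 9 rest on fewer than 20 fragments in every library.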

Other observations

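The 8 loci of the mitochondrial chromosome without a gene name were left out of the counts above. Of these, 6 were tested. The locus with first exon from 121370 to 121641 measured 3.65 and 2.52 FPKM in the Col-0 pair, 5.18 and 14.4 in the apc8-1 pair, and 4.01 and 5.09 in the nrpe1-12 pair, and rose in apc8-1 (1.27, SE 0.37, limma adjusted p = 0.0334), with its 2 apc8-1 libraries far apart. The locus with first exon from 1052 to 5617 had 5.08 and 4.98, 5.89 and 5.91, and 5.73 and 5.40 FPKM, and did not pass (adjusted p = 0.196 in apc8-1).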
